A study of Caenorhabditis elegans with 2 samples.

Results

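The genes described here encode the motor proteins that move along microtubules, namely kinesins with their light chains, cytoplasmic dynein, and dynactin, the activator complex of dynein. They were chosen by gene name (klp, klc, dhc, dli, dyci, dylt, dyrb, dlc and dnc genes, with bmk-1, zen-4, unc-116 and vab-8), which gave 42 of the 46233 genes in the deposited table. Whole fourth-stage (L4) Caenorhabditis elegans larvae grown at 25 °C were sequenced in 2 libraries. One was made from strain VC2324, a flp-6 mutant (flp-6 encodes FMRFamide-like neuropeptides), and the other from the wild type strain N2. The flp-6 lesion and any other allele that the strain may carry are not described in the labels. The values are FPKM, fragments scaled to transcript length and library size, with 1 library per genotype. There were no replicates, so no value has an error between animals or cultures, no test was made, and each difference is one between 2 libraries.

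Kinesins and dynein convert ATP into steps along microtubules. Most kinesins walk towards the plus end and carry organelles, vesicles and ciliary components, or build the spindle, whereas cytoplasmic dynein walks towards the minus end. Dynein is a large assembly in which a very long heavy chain holds the motor and smaller intermediate, light intermediate and light chains bind cargo and regulators. In the nematode both motor classes serve axonal transport, nuclear positioning, and the meiotic and embryonic spindles.

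The sum of FPKM over all genes was 989473 for the mutant library and 1414572 for N2, and the depth of each library is unknown. The targeted gene flp-6 had 4.40 FPKM in the mutant and 57.95 FPKM in N2. Differences are given as log2((mutant FPKM + 1)/(N2 FPKM + 1)), and a gene was counted as measured when its mean over both libraries was at least 1 FPKM, which 13436 genes and 35 of the 42 motor genes reached. Across 12999 genes above 0.0001 FPKM in both libraries this log2 difference went with transcript length, with a Spearman's rho of 0.355. Each difference is therefore also given after centring, which subtracts the median of the genes in the same of 40 length bins.

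The measured kinesin motor subunits and the longest of the measured dynein and dynactin subunits were higher in the mutant library as deposited. Most of the small dynein and dynactin subunits were lower. Over all genes too, those with longer transcripts tended to be higher in the mutant library. On the log2(FPKM + 1) scale 2 of the 35 measured genes, dhc-1 and klp-17, were higher by 2-fold or more in the mutant library, against 10.5% of all measured genes. Lower by 2-fold or more were 5, namely dlc-1, dnc-2, dnc-3, dnc-5 and dnc-6, against 11.3% of all measured genes. The median log2 difference was 0.37 for the motor genes and -0.10 for all measured genes. This split depended on the scale. Once the libraries were scaled to the same FPKM sum 12 motor genes were higher by 2-fold or more and 0 lower, against 20.8% and 2.98% of all measured genes. With the same upper quartile these counts were 5 and 2, against 14% and 6.27%. With the median difference of genes of at least 5 FPKM set to 0 they were 4 and 4, against 13.7% and 6.82%. These rescalings moved the median of all measured genes to 0.35, 0.09 and 0.08. All values come from whole larvae, in which fewer cells of a type and less RNA per cell cannot be told apart.

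**Figure D1:**
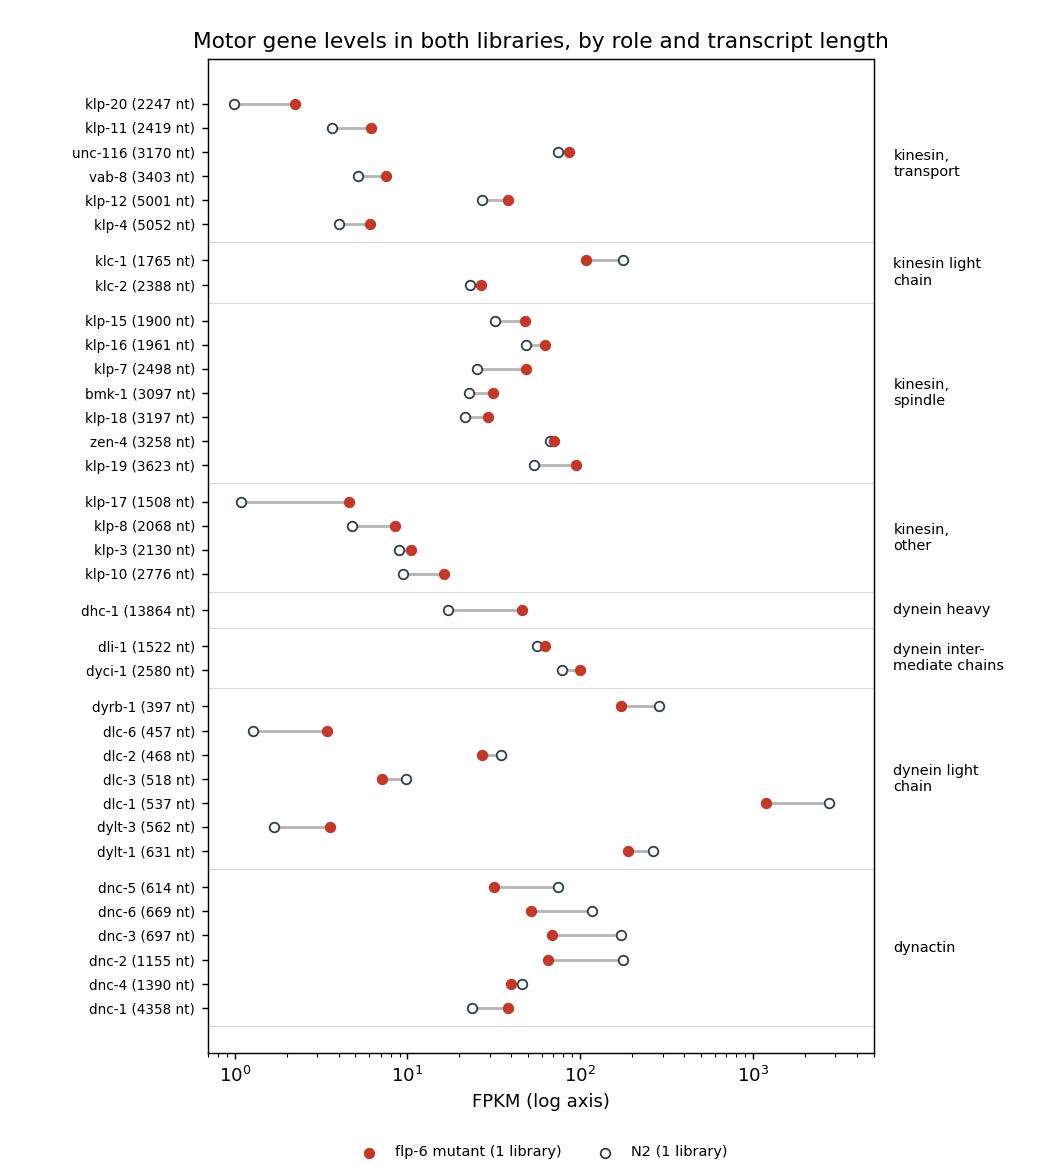
FPKM (log axis) of the 35 measured motor genes in the flp-6 mutant library (filled points) and the N2 library (open points), grouped by role and ordered by transcript length within each group. Each of these kinesin motor subunits lies to the right in the mutant library, from zen-4 at 70.5 against 67.2 FPKM to klp-17 at 4.59 against 1.08 FPKM, whereas 5 of the 6 dynactin genes lie to the left.

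Cytoplasmic dynein was led by its heavy chain. The dhc-1 gene, which encodes the motor subunit of cytoplasmic dynein, had 46.0 FPKM in the mutant library and 17.2 FPKM in N2, a ratio of 2.67 and a log2 difference of 1.37. It occupies chromosome I, forward strand, from 4386785 to 4401907 (WBcel235), and the longest of its annotated transcripts, with 15 exons, has 13864 nt. Among 37 genes of at least 10000 nt, 36 were higher in the mutant library and the median log2 difference was 0.93, and dhc-1, which is among them, lay above 27. After centring by length its difference was 0.56. The authors' deposited table gives dhc-1 a p-value of 0.028 (q-value 0.951), which compares these libraries and not the genotypes.

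The middle-sized dynein subunits differed little. The intermediate chain gene dyci-1, whose product joins dynein to dynactin, had 100.4 FPKM in the mutant library and 78.9 FPKM in N2. The light intermediate chain gene dli-1 had 62.5 FPKM in the mutant library and 56.2 FPKM in N2. Their log2 differences of 0.34 and 0.15 became 0.07 and 0.28 after centring, so that both genes remained on the higher side within 2-fold.

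The abundant light chains were lower as deposited. The dlc-1 gene, which encodes the LC8 light chain, a small protein that also binds many partners outside dynein, had by far the highest level of the motor genes, at 1185 FPKM in the mutant library and 2766 FPKM in N2. It lies on the reverse strand of chromosome III from 6462963 to 6463779 and has a transcript of 537 nt in 2 exons. Its log2 difference of -1.22 became -0.67 after centring by length. The roadblock light chain gene dyrb-1 had 173.0 FPKM in the mutant library and 285.4 FPKM in N2, or -0.72 and -0.38 after centring. The Tctex light chain gene dylt-1 had 189.2 FPKM in the mutant library and 263.8 FPKM in N2, and its log2 difference of -0.48 became 0.13 after centring. The LC8-related genes dlc-2, at 27.0 FPKM in the mutant library and 34.8 FPKM in N2, and dlc-3, at 7.13 FPKM in the mutant library and 9.79 FPKM in N2, likewise moved to the higher side, at 0.18 and 0.14. The signs of dylt-1, dlc-2 and dlc-3 also turned once the FPKM sums were made equal, to 0.04, 0.14 and 0.05. The light chains also depended on the form of centring. After centring by length and expression level, an alternative chosen after seeing the data, dlc-1 stood at -0.23, dyrb-1 at 0.06, dlc-2 at -0.12 and dlc-3 at -0.10.

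A pair of scarce light chain genes went the other way. The dlc-6 gene, another LC8 relative, had 3.40 FPKM in the mutant library and 1.27 FPKM in N2. The dylt-3 gene, another Tctex-type gene, had 3.56 FPKM in the mutant library and 1.68 FPKM in N2. Both have short transcripts, of 457 and 562 nt, and their log2 differences of 0.95 and 0.77 became 1.49 and 1.32 after centring. The bin medians subtracted were -0.54 and -0.55, so centring raises any gene of these lengths. After centring by length and expression level dlc-6 stood at 1.05 and dylt-3 at 0.89. These values rest on few fragments. FPKM times transcript length in kb, which goes with the number of fragments within a library, was 1.55 in the mutant library and 0.581 in N2 for dlc-6. For dlc-1 it was 636.3 in the mutant library and 1485 in N2. Without the added 1 FPKM, the ratio of mutant to N2 was 2.67 for dlc-6 and 2.12 for dylt-3.

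Dynactin, which links dynein to its cargo and makes it processive, was lower in 5 of its 6 subunit genes as deposited, all but dnc-1. By 2-fold or more 4 of the 6 subunit genes were lower, against 11.3% of all measured genes. The dnc-2 gene, which encodes dynamitin of the dynactin shoulder, had 65.5 FPKM in the mutant library and 177.4 FPKM in N2, so that the mutant level was 36.9% of that in N2. It lies on the reverse strand of chromosome III from 5924394 to 5925756, with a transcript of 1155 nt in 5 exons. Its log2 difference of -1.42 was the lowest of the motor genes. The shoulder subunit gene dnc-3 had 68.7 FPKM in the mutant library and 172.9 FPKM in N2. The pointed-end subunit genes dnc-5 and dnc-6 had 31.8 and 52.0 FPKM in the mutant library, against 74.1 and 117.8 FPKM in N2.

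The remaining dynactin genes are longer and differed less. The dnc-4 gene, a further pointed-end subunit with a transcript of 1390 nt, had 39.6 FPKM in the mutant library and 46.1 FPKM in N2. Its log2 difference of -0.21 turned to 0.29 once the FPKM sums were made equal, to 0.01 with the same upper quartile and to 0.04 after centring. The dnc-1 gene, which encodes the large subunit that binds microtubules and the dynein intermediate chain, had 38.2 FPKM in the mutant library and 23.8 FPKM in N2. It spans 10926720 to 10933203 on the reverse strand of chromosome IV, with a longest transcript of 4358 nt in 14 exons. Its difference of 0.66 became 0.10 after centring.

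Centring by length removed only part of the dynactin shift. The differences of the 4 lower genes as deposited lay between -1.42 and -1.17, and after centring dnc-2 stood at -1.15, dnc-3 at -0.73, dnc-6 at -0.61 and dnc-5 at -0.59. Only 0.619% of the 323 genes in the length bin of dnc-2, 1131 to 1178 nt, had a lower difference than dnc-2. For dnc-3 that share was 8.23% of 328 genes, and for dnc-5 and dnc-6 it was 17.9% of 324 and 19.2% of 323 genes. These 4 genes were picked for being lower by 2-fold or more as deposited, and a pseudocount or filter cannot turn a sign. Staying below 0 was thus largely set by that choice. The 4 genes were below 0 under each of the alternatives tried, with the smallest differences, -0.85 to -0.38, after centring by both length and expression level. They did not all stay past 2-fold: with the same FPKM sum they lay between -0.91 and -0.66, so that none was. Up to 9.87% of the exonic bases of a dynactin gene, in dnc-2, are shared with a neighbour, in that case C28H8.2 on the other strand.

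Ratios within a library give the relative levels of the subunits per transcript length. The genes dhc-1 and dnc-1 had the highest differences of their complexes as deposited, so a lower ratio to them in the mutant library follows from that choice and is a description only. Relative to dhc-1, dlc-1 stood at 25.8 in the mutant library and 160.9 in N2, dyrb-1 at 3.76 in the mutant library and 16.6 in N2, and dylt-1 at 4.11 in the mutant library and 15.3 in N2. The ratio of dyci-1 to dhc-1 was 2.18 in the mutant library and 4.59 in N2, and that of dli-1 was 1.36 in the mutant library and 3.27 in N2. Relative to dnc-1, dnc-2 stood at 1.71 in the mutant library and 7.46 in N2, and dnc-3 at 1.80 in the mutant library and 7.28 in N2. The ratio of the scarce dlc-6 to dhc-1 was 0.0739 in the mutant library and 0.0740 in N2.

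Some other pairs had a like ratio in both libraries. The ratio of dnc-6 to dnc-5 was 1.64 in the mutant library and 1.59 in N2, and that of dyci-1 to dli-1 was 1.61 in the mutant library and 1.41 in N2. The ratio of dnc-3 to dnc-2 was 1.05 in the mutant library and 0.975 in N2. The light chain genes of kinesin-1 did not, with a ratio of klc-1 to klc-2 of 4.03 in the mutant library and 7.70 in N2.

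The kinesin motor subunits were higher in the mutant library in 17 of 17 measured cases, with a median log2 difference of 0.50 and values from 0.07 to 1.42. Of the 4945 genes in their range of transcript length, 1508 to 5052 nt, 60.1% were higher in the mutant library and the median difference was 0.14. The rescalings raise every mutant value relative to N2, so this count could not fall under them. After centring by length 12 of the 17 were higher than their length bins, with a median of 0.31, and 11 after centring by length and expression level. Past 2-fold was 1, klp-17, both as deposited and after centring. The filter on low values shaped the count of 17. Without it 18 of 19 kinesin motor subunits were higher and 1, klp-13, was lower. The klp-20 gene passed the filter through its mutant value, with 2.22 FPKM in the mutant library and 0.993 FPKM in N2.

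All 6 measured kinesins of the group labelled transport, in which klp-12 and vab-8 were also placed, were higher as deposited. After centring 4 of them stood below 0, and 2, unc-116 and klp-4, did so when the shortest transcript gave the length. The kinesin-1 heavy chain gene unc-116, a motor of axonal transport, had 86.2 FPKM in the mutant library and 74.9 FPKM in N2, a difference of 0.20 that became -0.13. The klp-12 gene, a kinesin-4 that limits axon length, had 38.4 FPKM in the mutant library and 27.1 FPKM in N2. The klp-4 gene, a kinesin-3 that transports glutamate receptors, had 6.05 FPKM in the mutant library and 3.997 FPKM in N2. With the long transcripts of klp-12 and klp-4, 5001 and 5052 nt, their differences of 0.49 and 0.50 became -0.32 and -0.31. These depended on the form of centring: klp-12 stood at 0.91 when its shortest annotated transcript gave the length, and klp-4 at 0.05 after centring by length and expression level. The vab-8 gene, which directs posterior cell and axon migration, had 7.51 FPKM in the mutant library and 5.17 FPKM in N2, or 0.46 and -0.03 after centring.

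The subunits of heterotrimeric kinesin-II, which moves cargo along sensory cilia, were scarce in these whole larvae. The klp-11 gene had 6.11 FPKM in the mutant library and 3.66 FPKM in N2, and klp-20 had 2.22 FPKM in the mutant library and 0.993 FPKM in N2. The ratio of mutant to N2 was 2.24 for klp-20 without the added 1 FPKM. Their differences of 0.61 and 0.69 became 0.43 and 0.56 after centring. The gene of the non-motor subunit, kap-1, is counted among the partners of the motors and went the other way. It had 1.015 FPKM in the mutant library and 1.409 FPKM in N2, a difference of -0.26 as deposited and -0.39 after centring. The rescalings raise every mutant value relative to N2, and values under them are not given for kap-1. Both kap-1 and klp-20 lie near the cut of 1 FPKM, so these values cannot tell whether the subunit genes moved together. In the annotation used here 97.1% of the exonic bases of klp-11 also belong to a gene on the same strand, WBGene00303015, which has no row in the deposited table, so that its value is uncertain. The 8 marker genes of ciliated neurons summed to 1.997 FPKM in the mutant library and 2.96 FPKM in N2, with 1 of the 8 measured and none at 0.0001 FPKM, and their part in the result was not tested.

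The kinesin light chains, which couple kinesin-1 to cargo, did not move together. The klc-1 gene had 107.6 FPKM in the mutant library and 176.5 FPKM in N2, and klc-2 had 26.7 FPKM in the mutant library and 22.9 FPKM in N2. The difference of klc-1 was -0.71 and hardly depended on its length of 1765 nt, since it was -0.65 after centring. Of the 327 genes in its length bin 8.56% had a lower difference. The ratio of klc-1 to unc-116 was 1.25 in the mutant library and 2.36 in N2, whereas that of klc-2 to unc-116 was 0.310 in the mutant library and 0.306 in N2.

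The kinesins of spindles and chromosomes were higher in 7 of 7 cases, and 6 of 7 after centring by length. After centring by length and expression level bmk-1, klp-18 and zen-4 were on the lower side, at -0.17, -0.18 and -0.41. The largest difference was that of klp-7, a microtubule-depolymerising kinesin-13, with 48.3 FPKM in the mutant library and 25.4 FPKM in N2, or 0.90 and 0.72 after centring, above 95.1% of the 326 genes in its length bin. The klp-19 gene, a chromosome-bound kinesin-4, had 94.9 FPKM in the mutant library and 53.7 FPKM in N2, a difference of 0.81 that became 0.31. The klp-15 and klp-16 genes, kinesin-14 paralogues of the acentrosomal oocyte spindle, had 47.8 and 62.8 FPKM in the mutant library, against 32.0 and 48.3 FPKM in N2. Their sequences are closely similar and reads may be split between them, and their sum was 110.6 FPKM in the mutant library and 80.3 FPKM in N2.

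The other spindle kinesins lay close to genes of their length. The kinesin-5 gene bmk-1 had 31.3 FPKM in the mutant library and 22.6 FPKM in N2, and klp-18, required for a bipolar meiotic spindle, had 29.4 FPKM in the mutant library and 21.4 FPKM in N2. Their centred differences were 0.12 and 0.11. The zen-4 gene, the kinesin-6 of the central spindle, differed least, at 70.5 FPKM in the mutant library and 67.2 FPKM in N2, and its difference of 0.07 became -0.26 after centring. Markers of the germ line, where many of these genes are used, summed to 1525 FPKM in the mutant library and 1485 FPKM in N2 over 10 of 10 measured genes. Their median log2 difference was -0.04, or -0.29 after centring, with 4 of the 10 genes higher in the mutant library and 6 lower. None reached 2-fold on the log2(FPKM + 1) scale. The values ran from -0.995 for him-3 and -0.993 for nos-2 to 0.80 for mex-3. The part of these markers in the result was not tested.

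Among the remaining kinesins klp-17, a kinesin-14, had 4.59 FPKM in the mutant library and 1.08 FPKM in N2. This was the largest ratio of the measured motor genes, 4.24, and it was the only kinesin past 2-fold on the log2(FPKM + 1) scale. It lies on the reverse strand of chromosome II from 11465940 to 11467641, with a transcript of 1508 nt in 5 exons, and its log2 difference of 1.42 became 1.64 after centring. The locus that the deposited table gives for it is 3032 bases longer than the annotated gene. In the authors' deposited table its p-value was 0.603. The klp-8 gene had 8.45 FPKM in the mutant library and 4.75 FPKM in N2, klp-10 had 16.3 FPKM in the mutant library and 9.36 FPKM in N2, and klp-3 had 10.4 FPKM in the mutant library and 8.92 FPKM in N2. Their centred differences were 0.65, 0.48 and 0.14.

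After centring by length, 3 of the 35 genes were higher by 2-fold or more, against 10.9% of the 12999 genes, and 1 was lower by as much, against 3.16%. These were klp-17, dlc-6 and dylt-3 on the higher side and dnc-2 on the lower. After centring by length and expression level the counts were 2 and 0, against 1460 and 581 of 13315 genes. There dylt-3, at 0.89, and dnc-2, at -0.85, were no longer past 2-fold. The 3 higher genes had a mean FPKM under 3. Beside them, sperm markers were higher in 6 of 6 measured cases (of 8), with 5 past 2-fold as deposited, against 10.5% of all measured genes. That list summed to 305.3 FPKM in the mutant library and 109.8 FPKM in N2, with a median difference of 1.58, or 1.93 after centring, and none at 0.0001 FPKM. The part of sperm in the values of klp-17, dlc-6 and dylt-3 was not tested.

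Transcript length and level each went with the differences among the motor genes. Across the 35 measured genes, Spearman's rho of the log2 difference was 0.478 with length and -0.682 with mean FPKM. After centring by length these were 0.03 and -0.64, and over the 12999 genes the rho with mean FPKM was -0.268 as deposited and -0.278 after centring. The genes share their libraries, and these values are descriptions with no test. The spread of the differences fell with centring, with an SD of 0.77 as deposited and 0.61 centred over the motor genes. Over all 12999 genes the SD was 0.78 as deposited and 0.73 centred. Of the 35 genes, 29 were closer to 0 after centring, a count for which no share of all genes was computed. Between the 10th and 90th percentile of their length bin lay 28. That range holds most genes of any bin by construction, so the count of 28 is no result about the motor genes.

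**Figure D2:**
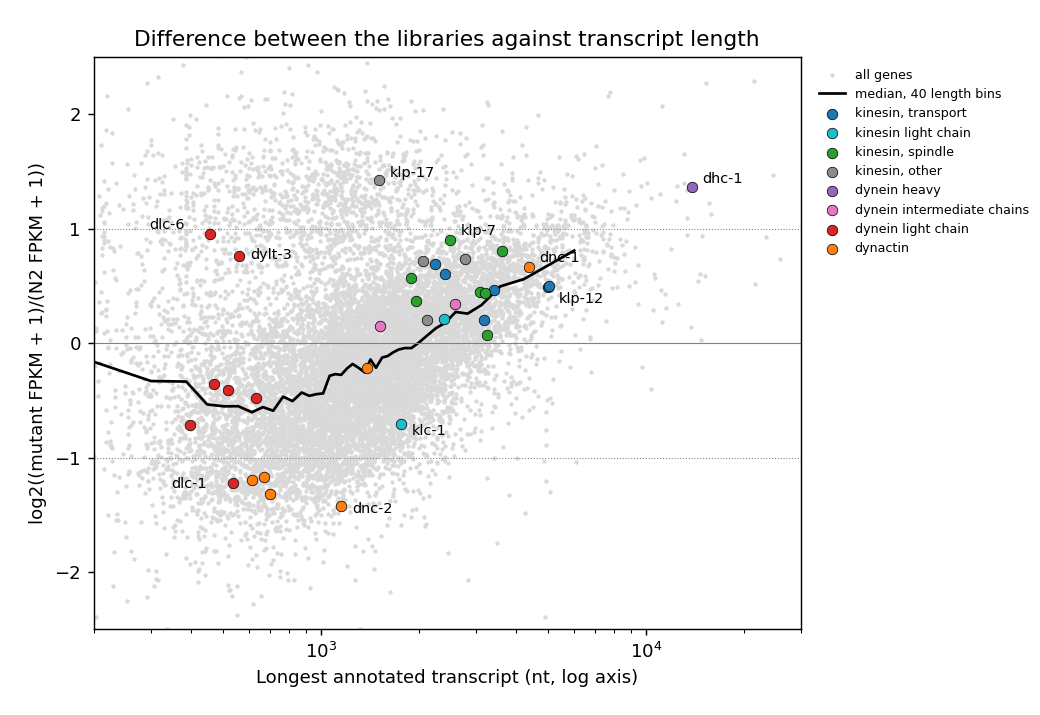
Log2 difference between the libraries, mutant over N2 with 1 FPKM added, against the longest annotated transcript (log axis) for 12999 genes (grey) and the 35 measured motor genes (coloured by role), with the median of 40 length bins as a line. The axes leave out 299 genes. Of the 10 measured dynein and dynactin genes under 1000 nt, 5 lie above the line and 5 below it. The longer dnc-2 lies well below it at -1.42, and dhc-1 at the far right lies at 1.37.

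The kinesins alone did not follow the trend with length. The 17 measured motor subunits had a rho of -0.243 between difference and length, while the 4945 genes in the same range of length had 0.388. Centring by length therefore left a rho of -0.811 among the kinesins, with the shorter ones above their bins and the longest, klp-12 and klp-4, below. Among the 16 measured dynein and dynactin genes the rho between difference and length was 0.235 as deposited, lower than the 0.478 over all 35 motor genes. Of the 11 motor genes of 1500 to 2500 nt, 10 were above their length bins. The motor genes in this class had a median of 0.57, against -0.01 for the 3292 genes in it. Of the 4 motor genes over 4000 nt, 2 were above their bins, and the medians were 0.58 for them and 0.70 for the 567 genes in that class.

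**Figure D3:**
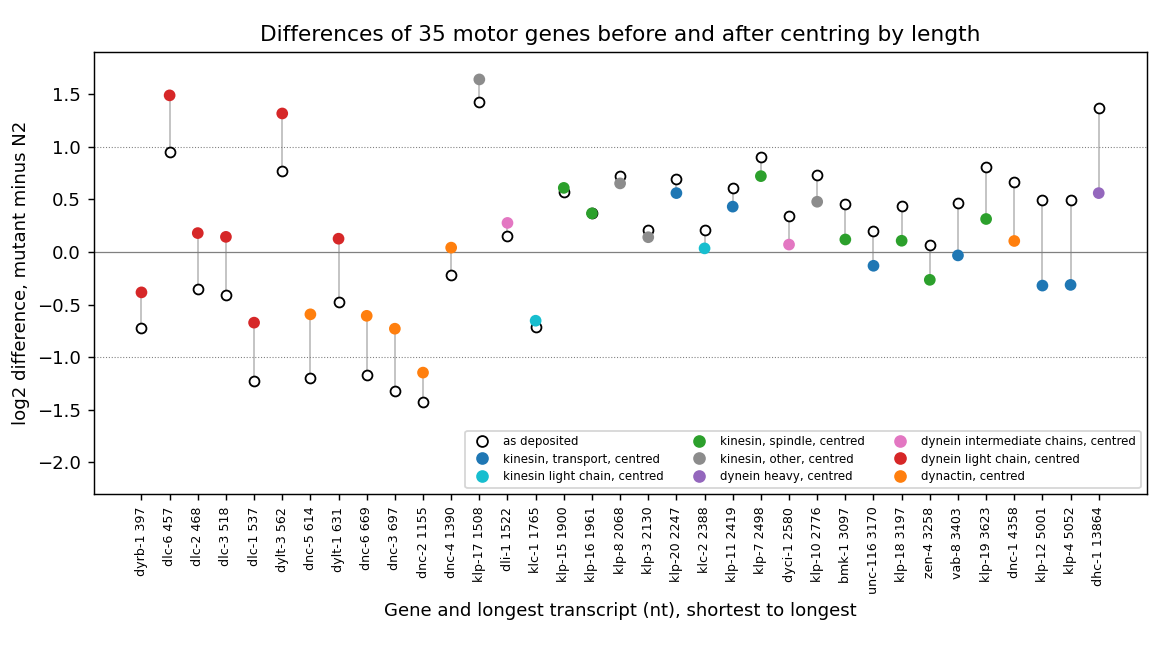
Log2 difference, mutant minus N2, of the 35 measured motor genes as deposited (open) and after centring by length (coloured by role), ordered from dyrb-1 with 397 nt to dhc-1 with 13864 nt. Centring lifts short genes and lowers long ones, which brings dhc-1 from 1.37 to 0.56 and dlc-1 from -1.22 to -0.67, while klp-17 at 1.64 and dnc-2 at -1.15 stay past 2-fold (dotted lines).

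The other 7 motor genes had a mean under 1 FPKM and are described by their levels only. The dylt-2 gene was listed at 0.0001 FPKM, the table's value in place of 0, in both libraries, and dlc-4 had 0.338 FPKM in the mutant library, against a listed 0.0001 FPKM in N2. The heavy chain genes dhc-3 and dhc-4 had 0.101 and 0.0274 FPKM in the mutant library, against 0.0595 and 0.00422 FPKM in N2. The klp-6 gene, a kinesin-3 of male sensory neurons, had 0.1002 FPKM in the mutant library and 0.0892 FPKM in N2. The kinesin-8 gene klp-13 had 0.332 FPKM in the mutant library and 0.757 FPKM in N2, and dlc-5 had 0.831 FPKM in the mutant library and 0.539 FPKM in N2. No difference is drawn from these values.

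The partners and regulators of the motors differed little from genes of their length. The list of 46 holds, among others, adaptors, dynein regulators such as lis-1 and kinetochore and spindle proteins. Of its 43 measured members 2 were higher by 2-fold or more and 0 lower, against 10.5% and 11.3% of all measured genes. The median of the partners was 0.22, or 0.00 after centring. None was past 2-fold after centring, against 10.9% higher and 3.16% lower among the 12999 genes. The largest centred differences were those of hcp-1, a CENP-F-like kinetochore protein, at 70.9 FPKM in the mutant library and 25.5 FPKM in N2, and of ebp-2, a microtubule end-binding protein, at 119.5 FPKM in the mutant library and 82.0 FPKM in N2. The kinetochore gene zwl-1 had 50.4 FPKM in the mutant library and 31.2 FPKM in N2. The axonal kinesin-3 gene unc-104, with a transcript of 5502 nt, had 2.38 FPKM in the mutant library and 2.03 FPKM in N2, a centred difference of -0.65.

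Genes of the microtubule track and of cell division give a further scale. Of 12 measured tubulin genes none was at least 2-fold higher or lower, against 10.5% and 11.3% of all measured genes. The tubulin median was 0.13, or 0.22 after centring. The tubulins with the largest centred differences were tbb-6, at 16.3 FPKM in the mutant library and 9.44 FPKM in N2, and tba-7, at 6.92 FPKM in the mutant library and 4.03 FPKM in N2. Next came tbb-2, at 1083 FPKM in the mutant library and 823 FPKM in N2, and tba-1, at 451 FPKM in the mutant library and 378 FPKM in N2. Among 16 cyclin and cyclin-dependent kinase genes, 1 was past 2-fold on the higher side and 3 on the lower, beside the same 10.5% and 11.3%. The median of this list was -0.02. The lower ones were cdk-1, at 154.0 FPKM in the mutant library and 399.5 FPKM in N2, cyb-2.1, at 116.2 FPKM in the mutant library and 235.8 FPKM in N2, and cyb-2.2, at 135.4 FPKM in the mutant library and 285.2 FPKM in N2. The higher one, cdk-7, had 66.0 FPKM in the mutant library, against a listed 0.0001 FPKM in N2. The centred medians of the kinesin motor subunits, dynein and dynactin were 0.31, 0.16 and -0.60. Whether these lists differ was not tested.

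**Figure D4:**
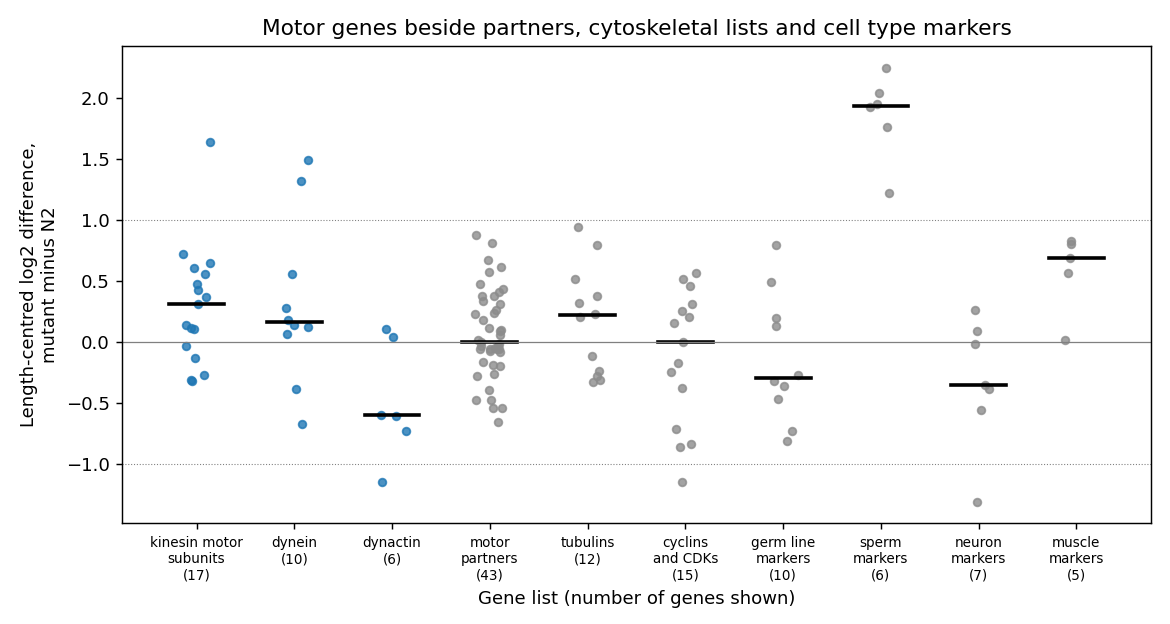
Length-centred log2 difference, mutant minus N2, of each measured gene above 0.0001 FPKM in both libraries, for the motor genes (blue), other lists (grey) and markers of cell types, with the median of each list as a bar. Dynactin has the lowest median, -0.60, and the sperm markers have the highest, 1.93. The cyclin-dependent kinase gene cdk-7 is left out because its N2 value is 0.0001 FPKM.

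Markers of tissues that use these motors also differed. Of 8 neuron markers 7 were measured, and all 7 were lower in the mutant library as deposited, at -0.86 to -0.12. Of all 13436 measured genes, 7482 were lower. The 8 neuron markers summed to 170.3 FPKM in the mutant library and 226.1 FPKM in N2. The rescalings raise every mutant value relative to N2, and values under them are not given for this list. After centring 2 of the 7 neuron markers were above 0 and the median was -0.35. Then 1 was lower by 2-fold or more, against 3.16% of the 12999 genes. Of 5 body wall muscle markers, 4 were higher, against 5954 of the 13436 measured genes. The 5 summed to 1829 FPKM in the mutant library and 1166 FPKM in N2, with centred differences from 0.02 to 0.83. None of these markers was at 0.0001 FPKM in either library. Their part in the motor gene values was not tested.

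In the authors' own list of 715 changed genes, 2 of the 42 motor genes appeared, dhc-1 with a higher and dnc-2 with a lower value in the mutant library. The 715 come from a deposited table of 46233 genes, of which 13436 were measured. The count of 2 is therefore a description and not a result about the motor genes. The p-value of dnc-2 in the authors' deposited table was 0.04405, and the lowest q-value among the motor genes there was 0.951. The authors' deposited table of terms placed both under motor activity, a term with 7 genes and an enrichment p-value of 0.0165. Its other members were the myosin genes spe-15, nmy-2, unc-54 and myo-3 and the ciliary kinesin gene osm-3. The genes behind these terms were picked for their difference in the same libraries, so the terms give no independent support for a direction.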

How the data were processed

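Per the labels' protocols, total RNA of whole larvae went into libraries of the TruSeq RNA kit, version 2. The submitters' processing notes name TopHat, Cufflinks and build WBcel235. Not given in the sources used here are versions, settings and any use of strand. The deposited FPKM values are, per the file headers, 1 column per library, scaled by the authors for transcript length and library size. The deposited ratio and log2 ratio of the authors have no pseudocount and were not used. The deposited p-value and q-value compare 1 library with the other.

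The pseudocount of 1 FPKM understates differences of low genes. Lengths and coordinates come from Ensembl release 115 of WBcel235, which held all 42 genes. Of these, 33 lay inside the locus field of the table within 60 bases, and that field often covers neighbouring genes. Length bins were set over 12999 genes. Centring would also take out a true change common to genes of one length. Every motor gene is given; of other lists, up to 4 genes with the largest centred differences are named, and further genes were chosen after their values were seen. The members and lists were chosen with earlier results of these data known. The centring was tested on simulated data. Other exonic overlaps reached 11.1% of a gene's bases, apart from klp-11. Calculations used scipy 1.17.1, pandas 2.3.3 and numpy 2.4.6 in Python 3.11.15, and figures matplotlib 3.10.9.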

Additional observations from a re-analysis of the deposited data

How the results depend on the processing

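No paired analysis was possible because each genotype has 1 library, and for the same reason no replicate could be left out. The count of motor genes at least 2-fold higher, 2 as reported, was 5 with a pseudocount of 0.1 FPKM, 1 with a pseudocount of 5 FPKM or a mean of at least 5 FPKM, 12 with the same sum, 5 with the same upper quartile and 4 with the median difference set to 0. The count at least 2-fold lower, 5 as reported, was 0 with the same sum, 2 with the same upper quartile, 1 under each of the 5 forms of centring by length alone (40 bins, 20 bins, shortest transcript, protein-coding bins, 200 nearest genes) and 0 after centring by length and expression. At a 4-fold threshold both counts were 0.

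The median of the dynein and dynactin genes, -0.38 as reported, turned to 0.10 with the same sum. It also turned to 0.0872 after centring in 40 bins, 0.0476 in 20 bins, 0.0754 in protein-coding bins, 0.0891 with the 200 nearest genes and 0.0509 by length and expression. The rho of difference with length, 0.478 as reported, was 0.773 when a mean of 5 FPKM was required. After centring it was 0.0305 in 40 bins, 0.0493 in 20 bins, 0.255 with the shortest transcript, 0.0182 in protein-coding bins, 0.0440 with the 200 nearest genes and -0.00952 by length and expression. The alternatives' own construction removes the trend with length; the cause of the other changes was not tested. The medians of all motor genes and of the kinesin motor subunits, both positive, kept their sign under every alternative. The rescalings raise every mutant value relative to N2, and a pseudocount cannot turn a gene's sign. Only the filters and the centrings could therefore have turned these medians. Of 485 values of single genes under an alternative, no value past 2-fold changed sign, which their size largely fixed. Moves of more than 1.5 times were seen in 36 of the 485. That count does not measure how far the 2-fold counts hold. With the same sum all 35 genes moved by less, yet the counts went from 2 and 5 to 12 and 0. The signs of dylt-1, dlc-2, dlc-3 and dnc-4 turned there too. The alternatives with the 200 nearest genes and with length and expression were chosen after seeing the data. Values of genes with few fragments, such as dlc-6, dylt-3 and klp-17, are the least certain at this unknown depth.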
